A study of Homo sapiens with 2 samples.

Results

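The histone-modifying enzyme genes described here were the protein-coding genes of GENCODE 44, an annotation of GRCh38, whose symbols are KDM, KMT or KAT followed by a digit, or HDAC followed by a number, with no hyphen. This rule gave 47 of 20033 protein-coding genes. They were 20 KDM genes (lysine demethylases), 8 KMT genes (lysine methyltransferases), 8 KAT genes (lysine acetyltransferases) and 11 HDAC genes (histone deacetylases).

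The series mapped accessible DNA by ATAC-seq, where Tn5 transposase cuts and tags open DNA, in 293T cells, an immortal line of human embryonic kidney origin that expresses the large T antigen of SV40. The peak lists of 1 control library and 1 MGO library, each from 50000 cells, were compared. MGO cells were kept for 12 h with 0.5 mM methylglyoxal (MGO), a reactive sugar by-product that glycates histones, and control cells received none. The deposited labels name PBS as the control treatment in a single field and describe plain fresh medium in another.

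With 1 library analysed per condition, no difference below has a replicate check and no test was made. Peaks with a −log10 q value of at least 2, which is a q value of at most 0.01, were used: 23458 in control and 15738 in MGO. No read counts come with the lists. The depth behind a peak is therefore unknown, and the Wilson intervals given with shares are at 95% and cover counting error only. Of 8 genes taken as marks of 293T identity, 6 had a peak at a transcription start site (TSS) in both lists (VIM, KRT8, KRT18, NEFL, INA and PAX2), NEFM had it in control and LHX1 in neither. Of 6 marker genes of other cell types, none had it in both lists.

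Histone tails carry acetyl and methyl groups on lysines, and these marks are set by acetyltransferases and methyltransferases and removed by deacetylases and demethylases. Lysine acetylation and H3K4 methylation mark active promoters, whereas H3K9 and H3K27 methylation mark repressed chromatin. The genes of these enzymes are mostly expressed in many cell types from promoters within CpG islands, which are open in ATAC-seq.

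A TSS peak was a peak within 1000 bp of the start of any transcript of the gene. A gene-body peak was any other peak over the gene. A control peak was counted as kept when an MGO peak overlapped it by at least 1 bp. Peak strength is the −log10 p value of the authors' peak caller and is used to order peaks within a list. A percentile is the rank of that value among the TSS peaks of all protein-coding genes in the same list.

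The promoter stretches of 180 bases printed first come from the strongest control TSS peak of each family, all of which were kept, and are shown as examples of sequence under these peaks. Relative to the canonical TSS, the HDAC2 stretch ends at −10 bp, the KAT2B stretch at −1 bp and the KDM1B stretch at −94 bp. The KMT2E stretch is farther off, from −1108 to −929 bp, in a peak that also lies at starts of KMT2E-AS1 and LINC01004. All 4 lie outside annotated exons, on the strand of the gene, in GRCh38. Capitals mark matches, on either strand, to the motif of SP1 (GGGCGG), to the CCAAT box, or to the motifs of ETS factors, NRF1 and YY1, whose letters are spelled out with the promoters further on.
HDAC2, chr6:113971158-113971337, minus strand: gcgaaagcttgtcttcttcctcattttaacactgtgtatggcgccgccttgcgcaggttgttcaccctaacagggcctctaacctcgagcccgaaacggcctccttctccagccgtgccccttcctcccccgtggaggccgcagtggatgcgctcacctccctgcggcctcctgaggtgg
KAT2B, chr3:20040266-20040445, plus strand: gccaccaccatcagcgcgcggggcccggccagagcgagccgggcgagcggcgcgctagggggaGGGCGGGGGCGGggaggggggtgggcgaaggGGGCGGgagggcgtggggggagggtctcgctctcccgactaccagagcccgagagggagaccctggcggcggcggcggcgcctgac
KDM1B, chr6:18155149-18155328, plus strand: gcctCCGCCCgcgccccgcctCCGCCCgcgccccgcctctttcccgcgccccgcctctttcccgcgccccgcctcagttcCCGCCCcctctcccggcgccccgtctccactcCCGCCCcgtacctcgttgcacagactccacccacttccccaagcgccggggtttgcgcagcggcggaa
KMT2E, chr7:105013097-105013276, plus strand: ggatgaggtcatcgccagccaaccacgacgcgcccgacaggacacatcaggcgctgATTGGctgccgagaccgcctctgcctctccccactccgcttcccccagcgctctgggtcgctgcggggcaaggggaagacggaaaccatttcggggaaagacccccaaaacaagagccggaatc
The KAT2B stretch holds 3 SP1 matches and the KDM1B stretch 4, the KMT2E stretch holds 1 CCAAT match read on the other strand, and the HDAC2 stretch holds no match to these letters. The 4 stretches have a GC content of 62.2% to 80.6% and 12 to 26 CpG dinucleotides.

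The second set comes from control gene-body peaks of genes picked by name, not by a rule, and shows examples of base composition. Capitals mark CpG dinucleotides. The stretches of HDAC9, KDM4C and KAT6B are from peaks with no overlapping MGO peak, and those of KAT2B, KDM6B and KDM2B are from kept peaks.
HDAC9, chr7:18610485-18610664, plus strand: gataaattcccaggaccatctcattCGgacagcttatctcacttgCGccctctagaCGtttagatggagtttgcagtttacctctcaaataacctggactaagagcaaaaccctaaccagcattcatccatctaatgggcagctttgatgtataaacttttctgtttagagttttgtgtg
KDM4C, chr9:7165358-7165537, plus strand: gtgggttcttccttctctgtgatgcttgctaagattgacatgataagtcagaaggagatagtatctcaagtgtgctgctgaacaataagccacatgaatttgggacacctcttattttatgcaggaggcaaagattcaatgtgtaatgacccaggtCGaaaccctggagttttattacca
KAT6B, chr10:74833674-74833853, plus strand: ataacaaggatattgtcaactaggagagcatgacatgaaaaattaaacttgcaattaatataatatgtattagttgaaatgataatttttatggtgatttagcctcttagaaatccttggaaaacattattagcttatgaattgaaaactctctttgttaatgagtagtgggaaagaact
KAT2B, chr3:20067196-20067375, plus strand: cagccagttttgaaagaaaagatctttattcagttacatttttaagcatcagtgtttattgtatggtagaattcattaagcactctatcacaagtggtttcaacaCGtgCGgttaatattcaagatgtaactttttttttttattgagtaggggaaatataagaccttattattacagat
KDM6B, chr17:7841962-7842141, plus strand: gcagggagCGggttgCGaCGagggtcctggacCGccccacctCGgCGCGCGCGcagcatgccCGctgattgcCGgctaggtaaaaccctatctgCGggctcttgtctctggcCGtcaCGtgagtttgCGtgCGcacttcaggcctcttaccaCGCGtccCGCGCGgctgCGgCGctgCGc
KDM2B, chr12:121466978-121467157, minus strand: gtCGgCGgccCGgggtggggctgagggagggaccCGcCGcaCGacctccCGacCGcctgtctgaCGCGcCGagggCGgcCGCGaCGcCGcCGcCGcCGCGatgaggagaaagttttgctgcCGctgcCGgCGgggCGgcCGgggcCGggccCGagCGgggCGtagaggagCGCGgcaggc
The stretches shown from peaks not kept hold 0 to 3 CpGs in these 180 bases. They do not stand for all such peaks. The 21 gene-body peaks not kept had a GC content of 33.0% to 65.5%, and those shown here were at 42.4% or less. Among the kept ones, the KDM6B stretch holds 24 and the KDM2B stretch 31, but the KAT2B stretch holds only 2.

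TSSs of the enzyme genes had a peak in both lists for most genes. A TSS peak was found for 40 of the 47 genes in control (85.1%, Wilson interval 72.3 to 92.6%), where 63.3% of all protein-coding genes had one. In MGO it was found for 39 genes (83.0%, 69.9 to 91.1%), where 57.8% of all protein-coding genes had one. These genes have more annotated starts than others, with a median of 15 per gene against 5, so that their windows are larger. With only the outermost start of each gene, 33 enzyme genes had a TSS peak in control and 34 in MGO, beside 56.4% and 51.5% of all genes.

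Peaks overlapped between the lists at 38 of the genes. KDM2B and KDM6B had a TSS peak in control only, which held for 10.9% of all protein-coding genes with a control TSS peak. KDM5B had it in MGO only, as did 3.89% of protein-coding genes without a control TSS peak. KMT5B, KAT2A, HDAC10, KDM4E, KDM4F and KDM5D had none in either list, as did 35.2% of all genes. With all peaks of the lists, including those below the threshold, KDM2B and KDM5B had a TSS peak in both. Each library pools many cells, so a site open in fewer cells and a site less open in each cell cannot be told apart. Counted by peaks, 40 of 44 control TSS peaks were kept (90.9%, 78.8 to 96.4%), while 14.4% of the control TSS peaks of all genes were not kept. The interval includes the share kept over all genes, 85.6%. Of the 42 MGO TSS peaks, 40 overlapped a control peak, as did 10254 of the 10617 MGO TSS peaks of all genes.

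**Figure D1:**
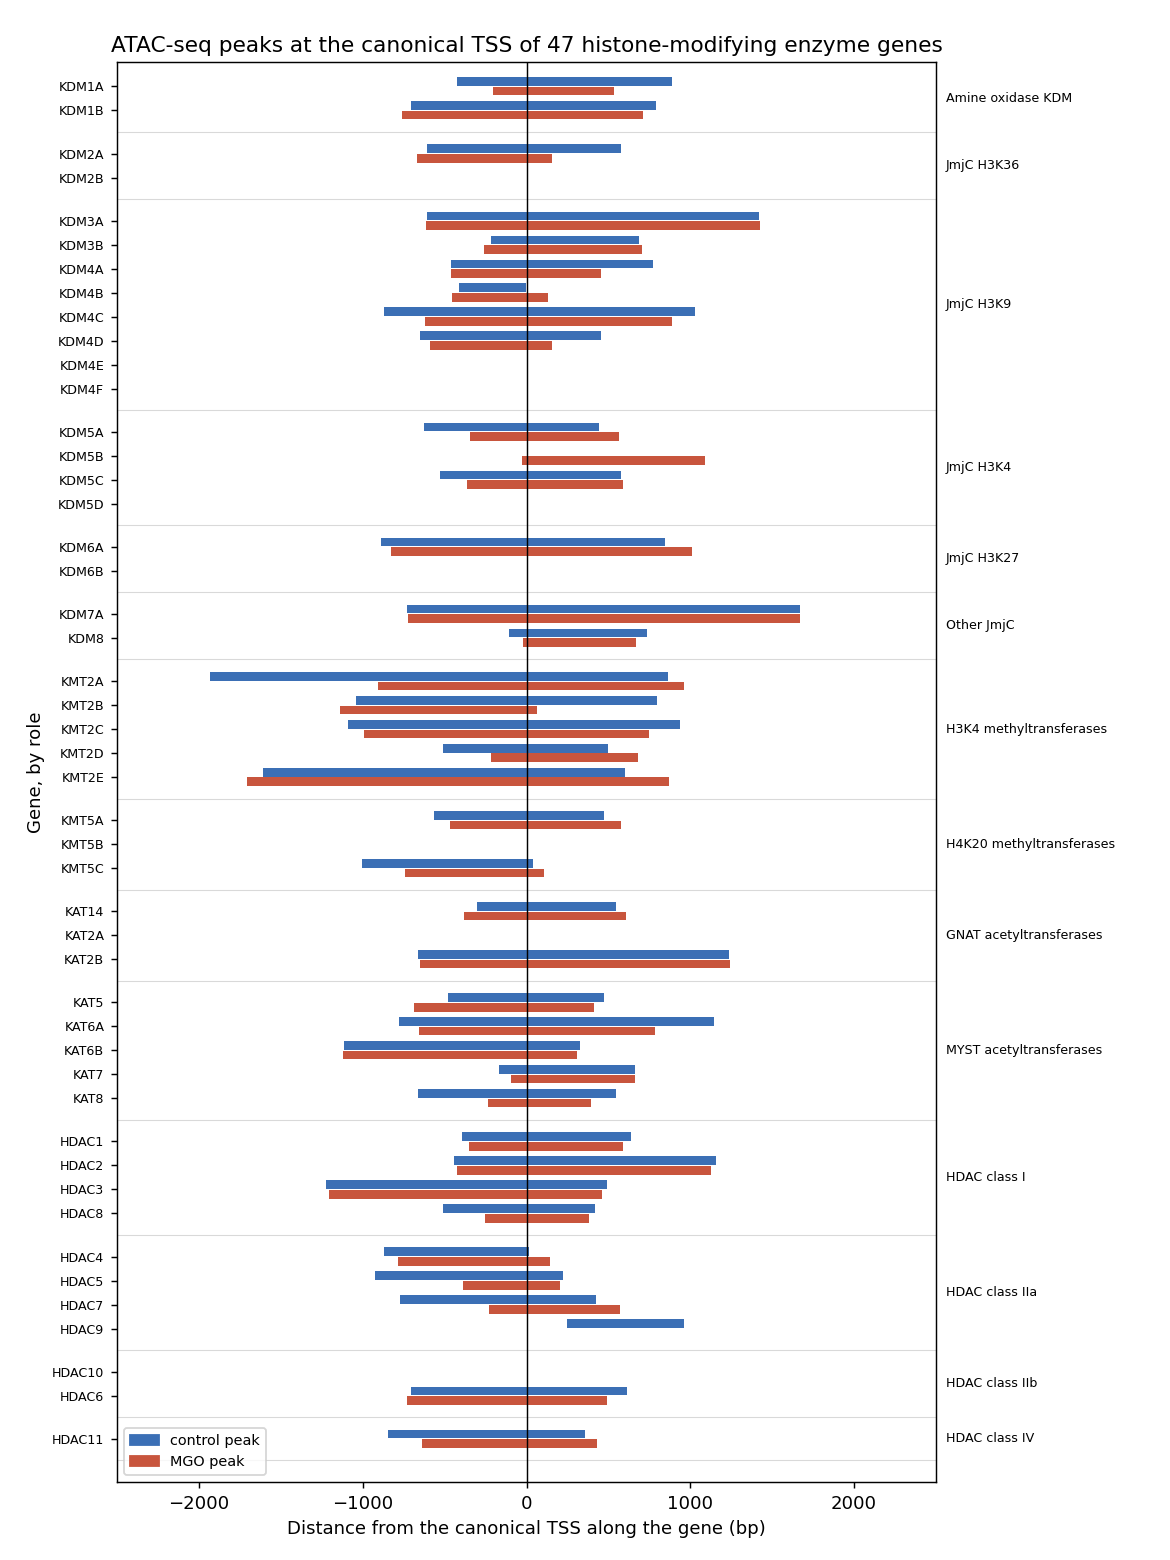
Span of the control (blue) and MGO (red) peaks around the canonical TSS of the 47 genes, grouped by role; the horizontal axis is the distance from that TSS along the gene in bp. Most genes have a pair of bars over the TSS, KDM5B has an MGO bar only and HDAC9 a control bar only, and genes with no bar (KDM2B and KDM6B among them) have no peak there in either list.

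The amine oxidase demethylases KDM1A and KDM1B, which remove mono- and dimethyl groups from H3K4, both kept their TSS peak. KDM1B had the strongest control TSS peak of the KDM genes, at chr6:18154717-18156212, with a −log10 p of 22.97 (percentile 96.3). Its MGO peak at chr6:18154659-18156136 had a −log10 p of 11.8 (percentile 82.6), and the widths were 1496 bp in control and 1478 bp in MGO. The KDM1B peak was therefore nearly as wide in MGO as in control (ratio 0.988). This peak also lies at the TSS of the neighbouring TPMT. KDM1A had a control peak of 1317 bp at chr1:23019041-23020357 and an MGO peak of 741 bp at chr1:23019265-23020005. The KDM1A span was thus 0.563 times as wide in MGO. The narrower MGO peak of KDM1A ranked higher in its list, with a −log10 p of 8.77 (percentile 59.9) against 6.71 (percentile 28.2) in control.

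The JmjC demethylases use iron and 2-oxoglutarate to remove methyl groups. KDM2A and KDM2B act on H3K36. KDM2A kept both of its TSS peaks, at the canonical start and at an internal start in intron 12. KDM2B had no peak at its canonical TSS in either list, and its control TSS peak lay at an internal start in intron 6, chr12:121536846-121538195, with a −log10 p of 4.58, at percentile 3.99 of control TSS peaks. An MGO peak below the threshold, with a −log10 q of 1.38, covered 93.8% of it. The KDM2B control peak was itself close to the threshold, with a −log10 q of 2.31.

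The H3K9 demethylases were KDM3A, KDM3B and KDM4A to KDM4F. The TSS peaks of KDM3A, KDM3B, KDM4A, KDM4B, KDM4C and KDM4D were kept, with width ratios from 0.675 for KDM4D to 1.40 for KDM4B. KDM4B had the narrowest control TSS peak of the enzyme genes, 415 bp, which ended just upstream of the canonical TSS, and an MGO peak of 583 bp that covered that TSS. It was the pair with the highest width ratio of the 40 pairs. KDM3A, at 2024 bp in control and 2039 bp in MGO, differed little between the lists. KDM4E and KDM4F, which have 1 annotated start each and lie next to KDM4D on chromosome 11, had no TSS peak in either list, nor a weaker peak below the threshold.

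The H3K4 demethylases KDM5A and KDM5C kept their TSS peaks, with width ratios of 0.856 and 0.864. KDM5B was the only enzyme gene with a TSS peak in MGO alone. Its MGO peak at chr1:202807330-202808449 spanned 28 bp upstream to 1091 bp downstream of the canonical TSS, with a −log10 p of 6.77 and a fold enrichment of 2.68. A control peak below the threshold, with a −log10 q of 1.70, covered 3.13% of it. KDM5D, on chromosome Y, had no TSS peak in either list.

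The H3K27 demethylases are KDM6A and KDM6B. KDM6A had a TSS peak of 1737 bp in control and of 1838 bp in MGO, so the MGO peak was wider. KDM6B had a control TSS peak at chr17:7843683-7844925, over exon 3 and far from its canonical start, with a −log10 p of 5.14 and a fold enrichment of 2.59, and no peak of the whole MGO list overlapped it. Within the same gene, a second control peak nearer the canonical start, in intron 2, was kept. Of the remaining JmjC genes, KDM7A, which acts on H3K9 and H3K27, had almost the same span in each list (2401 and 2395 bp), and KDM8 had 844 and 692 bp.

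The H3K4 methyltransferases KMT2A to KMT2D are large enzymes that work in COMPASS-type complexes, and KMT2E is their relative. At the canonical TSS, each of the 5 genes had a peak in both lists. KMT2E had the strongest KMT peak, with a −log10 p of 13.1 (percentile 75.1) at chr7:105012598-105014806 in control and of 12.8 (percentile 86.7) at chr7:105012496-105015078 in MGO. Its widths were 2209 and 2583 bp, so it was among the genes with a wider MGO peak. KMT2A had the widest control TSS peak of all the enzyme genes, 2800 bp at chr11:118434559-118437358, against 1868 bp at chr11:118435584-118437451 in MGO. The difference was upstream, where the MGO peak began 1025 bp closer to the TSS, while downstream it reached further than the control peak. KMT2B showed the opposite side, with 1841 bp at chr19:35716960-35718800 in control and 1204 bp at chr19:35716863-35718066 in MGO, and a downstream edge 734 bp shorter in MGO. KMT2C had a second control TSS peak in intron 4, chr7:152314139-152314607, which lay 934 bp from an annotated start, had a −log10 p of 7.23 and was not kept. With a window of 500 bp it would not count as a TSS peak. Of the H4K20 methyltransferases, KMT5A and KMT5C kept their peaks, and KMT5B had a peak below the threshold in each list.

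The acetyltransferases of the GNAT group are KAT2A, KAT2B and KAT14. KAT2B (PCAF), a coactivator, had the strongest TSS peak of the KAT genes. Its −log10 p was 20.1 (percentile 93.4) in control, at chr3:20039781-20041681, and 16.9 (percentile 95.9) in MGO, at chr3:20039797-20041690. Its edges differed by 16 bp upstream and by −9 bp downstream between the lists (control minus MGO extent). KAT14 had a wider peak in MGO, 986 against 850 bp. KAT2A (GCN5), the closest relative of KAT2B, had only a control peak below the threshold. The 5 MYST genes KAT5, KAT6A, KAT6B, KAT7 and KAT8 all kept their TSS peak. Their width ratios ran from 0.524 for KAT8 to 1.15 for KAT5. KAT8, the H4K16 acetyltransferase MOF, had 1209 bp at chr16:31117000-31118208 in control and 633 bp at chr16:31117427-31118059 in MGO. Its −log10 p was 10.8 (percentile 62.4) in control and 10.5 (percentile 74.5) in MGO.

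The class I deacetylases HDAC1, HDAC2, HDAC3 and HDAC8 had kept TSS peaks at all 4 genes. HDAC2 had the strongest HDAC peak, with a −log10 p of 22.8 (percentile 96.1) at chr6:113969992-113971593 in control and of 16.7 (percentile 95.6) at chr6:113970019-113971574 in MGO. The HDAC2 widths of 1602 and 1556 bp were close to each other, whereas HDAC8, on chromosome X, had 930 bp in control and 639 bp in MGO. The class IIa genes HDAC4, HDAC5, HDAC7 and HDAC9, whose products shuttle between nucleus and cytoplasm, included several of the largest differences in span. Taking the strongest control TSS peak of each gene, HDAC5 had the lowest width ratio, 0.519, with 1147 bp at chr17:44123418-44124564 in control and 595 bp at chr17:44123434-44124028 in MGO. It also had an MGO TSS peak at an internal start in exon 14, chr17:44086706-44087261 (−log10 p 5.56), that overlapped no control peak. HDAC7 kept both of its peaks, and both were narrower in MGO. At the canonical TSS the HDAC7 widths were 1197 bp in control (chr12:47819479-47820675) and 804 bp in MGO (chr12:47819331-47820134), and in intron 1 they were 1017 bp (chr12:47812652-47813668) and 525 bp (chr12:47812985-47813509). The peak at the canonical TSS of HDAC7 had a −log10 p of 6.89 (percentile 30.1) in control and of 7.84 (percentile 49.4) in MGO. HDAC9 kept the peak at the 5′ end of its gene record (chr7:18086112-18087481 in control) and not the one at its canonical exon 1, chr7:18495996-18496708, whose −log10 p of 4.47 was at percentile 2.84 of the control TSS peaks. HDAC6, the tubulin deacetylase, and HDAC11 kept their TSS peaks with width ratios of 0.927 and 0.890. HDAC10 had a control peak below the threshold only.

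The span of open sequence at the TSSs was smaller in MGO. Peaks covered 55411 bp of the TSS windows of the 47 genes in control and 47327 bp in MGO, a ratio of 0.854, beside 0.842 over all protein-coding genes. How this compares with all genes depended on the threshold, with 0.818 beside 0.687 at a −log10 q of at least 5, and 0.0774 beside 0.443 at a fold enrichment of at least 4. By family, this ratio was 0.829 for KDM, 0.891 for KMT, 0.919 for KAT and 0.824 for HDAC. Of the genes with paired peaks, the lowest ratios were those of KAT8 (0.524), HDAC9 (0.558), KDM1A (0.563), KMT2B (0.598) and HDAC7 (0.6003). KAT8 had 1209 bp in control and 633 bp in MGO, and HDAC9 had 2083 and 1163 bp. KDM1A had 1317 and 741 bp, KMT2B 1828 and 1094 bp, and HDAC7 2214 and 1329 bp. HDAC9 and HDAC7 are in this group with more than 1 control TSS peak each.

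**Figure D2:**
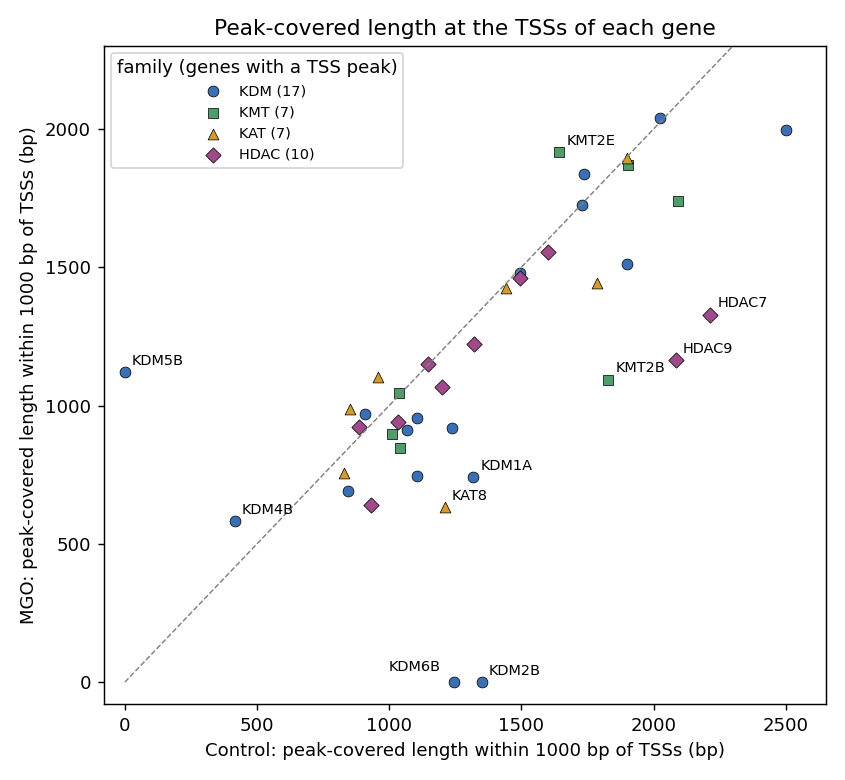
Length of sequence covered by peaks within 1000 bp of the TSSs of each gene, in bp, in control (horizontal) and in MGO (vertical); each point is a gene, marker and colour give the family, and the dashed line is equality. The points for KDM2B and KDM6B lie on the floor at 0 bp in MGO, KDM5B lies at 0 bp in control, and KAT8, KDM1A, KMT2B, HDAC9 and HDAC7 lie well below the line.

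For the 40 pairs with 1 control and 1 MGO peak, the median width ratio was 0.887, with a 95% interval of the median of 0.814 to 0.971, beside 0.903 over all genes. The MGO peak was narrower in 31 of 40 pairs (77.5%, Wilson interval 62.5 to 87.7%), and in 68.5% of the pairs of all genes. The medians by family, with the strongest control TSS peak of each gene, were 0.875 for KDM, 0.859 for KMT, 0.990 for KAT and 0.900 for HDAC. The median extent that a control peak had beyond its MGO peak was 80.5 bp on the upstream side and 18 bp on the downstream side, beside 64 and 31 bp over all genes. The upstream edge was closer to the TSS in MGO in 28 of 40 pairs, and the downstream edge in 22. Over all genes, with pairs counted per gene, these were 8290 and 7022 of 12048 pairs, which are like shares. In both the enzyme genes and all genes the upstream side thus had the larger median difference.

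Gene-body peaks of the enzyme genes were mostly not kept. There were 25 such peaks in control, in 15 genes, and 4 in MGO, in 4 genes. An MGO peak overlapped 4 of the 25 (16.0%, Wilson interval 6.40 to 34.7%), and 69.1% of the control gene-body peaks of all genes were not kept. The interval includes the share kept over all genes, 30.9%. Some other settings gave a higher share kept in both sets, with 25% beside 51.1% over all genes for equal numbers of peaks, 28.0% beside 43.3% against the whole MGO list, and 30.6% beside 45.5% with 1 TSS per gene. With all deposited peaks it was 19.1% beside 26.6%. The share of the enzyme genes was lower with TSS windows of 500 bp (15.4% beside 31.2%) and 2000 bp (13.0% beside 30.6%). It was also lower with an overlap of at least 50% of both peaks (12.0% beside 25.8%) and a fold enrichment of at least 4 (0% beside 22.1%). All 4 MGO gene-body peaks overlapped a control peak, where 25.2% of the MGO gene-body peaks of all genes did not. Of the 21 peaks not kept, 3 had an MGO peak below the threshold (in HDAC2, HDAC9 and KAT6A) and 18 were overlapped by no peak of the whole MGO list.

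None of the 12 HDAC gene-body peaks was kept, and 2 of 6 KDM, 1 of 3 KMT and 1 of 4 KAT peaks were. These counts are small, and a difference between families was not tested. Over all genes, few weak gene-body peaks were kept: 9.87% at a −log10 p under 5, 18.8% at 5 to 6 and 36.1% at 6 to 8. HDAC9, which spans 915 kb, held 7 of the 12 HDAC peaks. They lay at chr7:18126153-18126694, chr7:18352486-18353463 and chr7:18393689-18394365, upstream of the canonical start, and at chr7:18553079-18553537 (intron 2), chr7:18610081-18611070 (intron 6), chr7:18666106-18666948 (exon 12) and chr7:18900320-18901569 (intron 22) downstream of it. Their −log10 p values ran from 4.92 to 6.67, so none was strong. The other HDAC peaks were 2 in HDAC2 and 1 each in HDAC5, HDAC8 and HDAC11, with the strongest, at a −log10 p of 8.87, lying within 1000 bp of a start of the antisense gene HDAC2-AS2. Without HDAC9, 4 of 18 peaks were kept (22.2%).

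The strongest gene-body peak of the enzyme genes was not kept. It lay over exon 20 of KDM4C, near the 3′ end of the gene, at chr9:7164732-7165918, with a −log10 p of 15.1 and a fold enrichment of 5.08. No MGO peak, weak ones included, overlapped it, although 88.4% of the gene-body peaks of all genes with a −log10 p of at least 10 were kept. The second KDM4C peak, in intron 8 at chr9:6974722-6975102, had a −log10 p of 4.41. KDM6A had 2 peaks in intron 2, at chrX:44899005-44899387 and chrX:44953365-44954545, and KAT6B had 2 at chr10:74833396-74834133 (intron 1) and chr10:74968426-74968809 (intron 4). None of these was kept. Among the KMT genes, the peaks at chr7:152383582-152384172 in intron 1 of KMT2C and at chr7:104945059-104945566 upstream of the canonical start of KMT2E were not kept.

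The 4 kept gene-body peaks were 1 each in KAT2B, KDM2B, KDM6B and KMT2D. The KAT2B peak in intron 1 had a −log10 p of 9.51 at chr3:20066992-20067580 in control and of 4.57 at chr3:20067050-20067497 in MGO. Its GC content was 36.5%, the lowest of the kept peaks. The KDM2B peak in intron 12, at chr12:121466955-121467918 in control and chr12:121467132-121467966 in MGO, had a −log10 p of 8.03 and 7.35, and a GC content of 78.7%. KDM6B had its kept peak in intron 2, with a −log10 p of 4.49 at chr17:7841719-7842385 in control and of 4.58 at chr17:7841848-7842928 in MGO. At the 3′ end of KMT2D, in exon 55, the control peak at chr12:49018073-49019128 had a −log10 p of 7.96 and the MGO peak at chr12:49018370-49019027 one of 8.04. The KMT2D peak is within 1000 bp of TSSs of PRKAG1 and DDN-AS1, so it also lies at promoters of neighbouring genes.

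**Figure D3:**
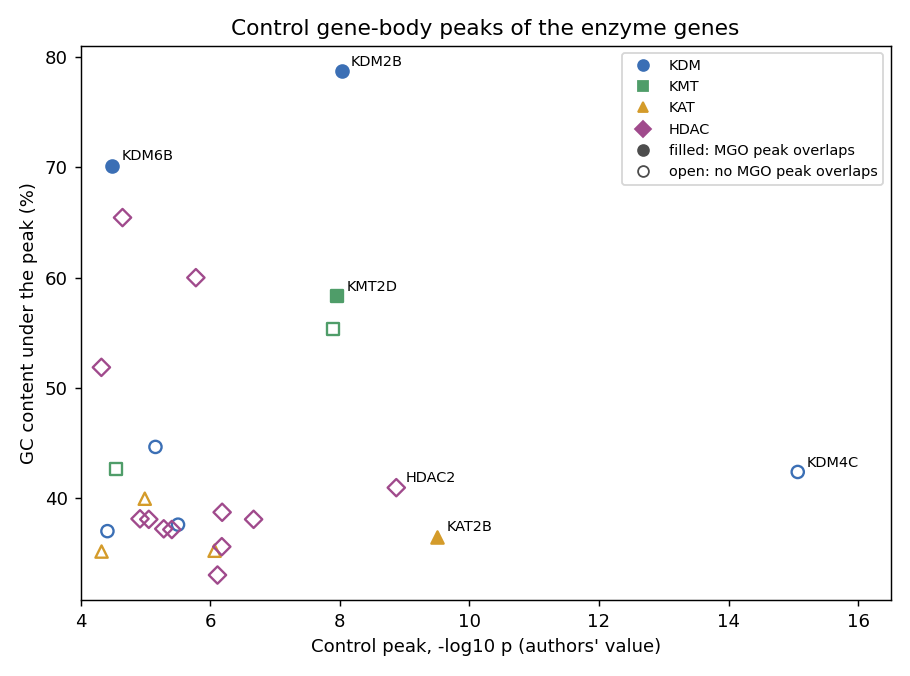
The 25 control gene-body peaks of the enzyme genes by strength (−log10 p in the control list, horizontal) and GC content of the sequence under the peak in percent (vertical); marker and colour give the family, filled symbols are peaks that an MGO peak overlaps. The 4 filled points are KDM2B, KDM6B, KMT2D and KAT2B, and KDM4C stands alone on the right as an open point.

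Base composition moved with whether a peak was kept. The median GC content was 64.2% for the 4 kept gene-body peaks and 38.1% for the 21 not kept, and over all genes it was 58.2% and 44.2%. The enzyme genes had gene-body peaks of lower GC content, with a median of 38.7% beside 47.02% over all genes. Of their peaks, 14 had a GC content below 40%, and 1 of these was kept, while 13.2% of such peaks of all genes were. Of 4 peaks at 60% or more, 2 were kept, beside 66.7% over all genes. If the enzyme genes' peaks had been kept at the share of all genes in each GC class, 6.34 of the 25 would have been, and with classes of −log10 p 7.24 would have been, beside the 4 observed. The parts of GC content, strength and width in these counts were not tested.

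Kept TSS peaks were the stronger ones. All 26 TSS peaks with a control −log10 p of at least 8 were kept, 22 of them at 10 or more, where the shares over all genes were 94.6% (8 to 10) and 99.4% (10 or more). Of 13 peaks between 6 and 8, 12 were kept, of 3 between 5 and 6, 2 were, and of the 2 below 5, neither was. Over all genes the shares kept in these 3 classes were 82.9%, 61.1% and 40.3%. At the shares of all genes in these classes, 39.1 of the 44 TSS peaks would have been kept, beside 40 observed. The median −log10 p of the TSS peaks was 9.93 in control and 9.17 in MGO, beside 9.08 and 7.87 over all genes. In gene bodies the medians of the control peaks were 5.50 and 5.53, so enzyme genes and all genes had gene-body peaks of like strength.

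**Figure D4:**
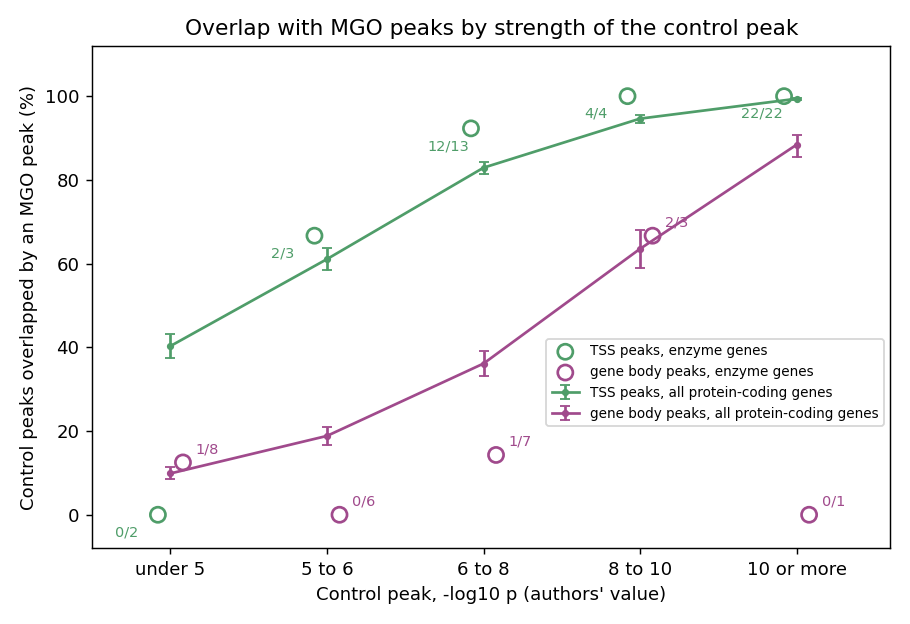
Percentage of control peaks overlapped by an MGO peak (vertical) by class of −log10 p in the control list (horizontal), for TSS peaks (green) and gene-body peaks (purple). Lines are all protein-coding genes with 95% Wilson intervals as bars, and open circles are the enzyme genes with the number kept over the number in the class; all TSS circles from 8 upwards are at 100%, and the single gene-body peak in the top class, that of KDM4C, is at 0%.

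Genes with a gene-body peak were longer at the median, though the ranges overlapped. The 15 genes with one had a median length of 152 kb (20.6 to 915 kb) and the 32 without one 47.8 kb (2.34 to 353 kb). The enzyme genes had 0.496 control gene-body peaks per 100 kb, beside 0.380 for all protein-coding genes.

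Other histone-modifying enzymes with symbols outside the rule, 31 genes such as EZH2, EP300 and SIRT1, were set beside these. Of the 31, 24 had overlapping TSS peaks, SIRT6 had a control peak only, CREBBP, PHF2 and DOT1L had an MGO peak only, and EHMT2, SETD1B and UTY had none. Their covered length was 31389 bp in control and 33464 bp in MGO, a ratio of 1.07, where the KDM, KMT, KAT and HDAC genes had 0.854. This ratio includes genes near the threshold. CREBBP, PHF2 and DOT1L added 1989, 636 and 719 bp in MGO and 0 bp in control. SIRT6 added 825 bp in control and 0 bp in MGO. Each of these genes had a peak below the threshold in the other list. The MGO peak was narrower in 12 of the 24 pairs of the other enzymes (Wilson interval 31.4 to 68.6%), an interval that overlaps that of the 31 of 40 pairs above. The difference between these lists was not tested.

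The RefSeq promoters (250 bases before to 50 after a start, GRCh38) of 43 of the 47 genes were matched by symbol, and both strands were searched. Their median GC content was 65.0%, beside 62.7% for all 15842 promoters, and their median ratio of observed to expected CpGs was 0.845 beside 0.763. An SP1 match was present in 27 of the 43 (62.8%, and 58.5% of all promoters) and a CCAAT match in 14 (32.6%, and 36.4%). The ETS letters searched, CCGGAAG, were present in 8 promoters (18.6%, and 14.2%). For YY1, the letters AAGATGG were found in 5 promoters (11.6%, and 6.40% of all). For AP-1, the letters TGANTCA were found in 3 promoters (6.98%, and 5.75% of all). For NRF1, the letters GCATGCG were found in the KDM1A promoter alone (2.33%, and 5.14% of all). No promoter of the 43 held the TATA letters, TATAAA, which 9.63% of all promoters did. The KMT2C promoter had the highest GC content, 88.7%, and 15 SP1 matches. Of the 5 matched promoters of genes with no TSS peak in either list, the GC content ran from 45.3% for KDM4F to 77.3% for KMT5B. A matched promoter did not always hold the canonical TSS of its gene, as for KDM4F, KMT5B, HDAC4 and KAT14. None of the 47 canonical TSSs had another near-identical copy in GRCh38 when 500 bp to each side were searched.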

How the data were processed

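ATAC-seq of 293T cells was analysed from the peak lists of 1 control and 1 MGO library. Per the submitters' processing notes and the methods, the authors converted reads with bcl2fastq 2.19, mapped them to GRCh38.p12 (hg38) with BWA 0.7.15, took out multi-mapping and mitochondrial reads using Picard (2.16.0 in the notes, another version in the methods), equalized depth by random subsetting of reads and called broad peaks per library with MACS2, whose version is not given in the sources used here. The deposited lists give for each peak a ratio (enrichment over background), −log10 p and −log10 q values, and a score not used here. Because the authors subsetted reads, depth differences were reduced, but library complexity was not measured here.

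Peaks of the autosomes, X and Y whose −log10 q reached 2 were matched to GENCODE 44 genes (TSS window 1000 bp, overlap 1 bp). The members and lists were chosen with earlier results of these data known. Genes named with coordinates were those with a TSS peak in 1 list only or TSS peaks that did not overlap, the strongest TSS peak and the most control gene-body peaks of each family, and the 5 lowest width and covered-length ratios; the kept gene-body peaks, KDM4C and KDM4B were chosen after their values were seen. A median's interval is from binomial order statistics. Python 3.11.15, pandas 2.3.3, scipy 1.17.1, pysam 0.24.0 and blastn 2.17.0 were used; overlaps were checked with bedtools 2.31.1 and on simulated data.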

Additional observations from a re-analysis of the deposited data

How the results depend on the processing

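No paired analysis was possible because the comparison has a single library on each side. Over 68 recomputed values, 46 stayed within their limits and 22 moved. Each value was compared with its own main value, so these labels do not show whether the order of control and MGO changed. The limits were wide for gene counts. With a −log10 q of at least 5, 31 genes with a TSS peak in control and 28 in MGO were still within them, where the main setting gave 40 and 39. With all deposited peaks, gene-body peaks numbered 47 in control and 14 in MGO, and the covered-length ratio was 0.834 (0.865 over all genes). With a −log10 q of at least 5 these were 6, 1 and 0.818 (0.687 over all genes). A fold enrichment of at least 4 left 9 genes with a TSS peak in control and 1 in MGO, 11.1% of TSS peaks kept, 2 gene-body peaks in control and 0 in MGO (0% kept), a covered-length ratio of 0.0774 and a width ratio of 0.675. Over all genes this setting left 20.8% of genes with a TSS peak in control and 10.2% in MGO, 40.1% of TSS peaks and 22.1% of gene-body peaks kept, and ratios of 0.443 and 0.888. With equal numbers of peaks, 97.5% of TSS peaks were kept (92.7% over all genes), control gene-body peaks numbered 12, of which 3 were kept (25%, and 51.1% over all genes), and the covered-length ratio was 0.926 (0.9497 over all genes). With 1 TSS per gene, 100% of TSS peaks were kept (88.8% over all genes), MGO gene-body peaks numbered 12, the covered-length ratio was 0.912 (0.859) and the share of gene-body peaks kept was 30.6% (45.5%). TSS windows of 500 and 2000 bp gave covered-length ratios of 0.889 and 0.851 (0.859 and 0.831 over all genes). Against all deposited MGO peaks, 28.0% of gene-body peaks were kept (43.3% over all genes). KDM2B had TSS peaks in both lists with all deposited peaks, and in neither with equal numbers of peaks, as had KDM6B. KDM5B had them in both with all deposited peaks. KDM6B had them in both with a 2000 bp window. With a −log10 q of at least 5, 10 of the 47 genes changed their difference between the lists (TSS peak in MGO or in control), and with a fold enrichment of at least 4, 11 did. At the first of these settings, 5 genes had a TSS peak in control only and 2, KDM1A and HDAC7, in MGO only. The count of genes with a TSS peak was higher in MGO than in control with equal numbers of peaks (39 and 38) and with 1 TSS per gene (34 and 33). The cause of these shifts was not tested. The removal of gene-body peaks near TSSs of other genes (3 of 22 kept, 13.6%) and of HDAC9 were alternatives chosen after seeing the data.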
